A study of Mus musculus with 6 samples.

Results

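The circadian clock genes analysed here are the 10 genes Clock, Arntl (which encodes BMAL1), Per1, Per2, Per3, Cry1, Cry2, Nr1d1, Nr1d2 and Dbp, taken by symbol from a counts table of 21960 genes, and all 10 were found in it. They were measured by RNA-Seq in TuBo cells, cells from a breast tumor that arose in a mouse of the BALB/c-MMTV-NeuT strain, in which the MMTV promoter drives the rat Neu oncogene in the mammary epithelium. The mock libraries (n = 3), whose genotype the labels give as wt, were compared with p140Cap libraries (n = 3), whose cells overexpress p140Cap, an adaptor protein encoded by Srcin1. The p140Cap cells were infected with a pBabe-puro retrovirus carrying the p140Cap cDNA and selected with puromycin, and 4 clones grown from single cells were pooled. The sources used here do not say whether mock cells carried an empty vector or went through cloning, so p140Cap expression cannot be told apart from the history of those clones. Sample titles call the samples cell lines while the series' design text calls them mice, and the paper describes TuBo cells grown in DMEM with 20% FBS. The sources used here give neither the hour of harvest, nor the time since the last medium change, nor any synchronization of the cultures. Gene positions are those of RefSeq on GRCm38.p6, the build (mm10) named in the submitters' processing notes. The paper's data availability statement lists mouse GRCm39 instead, without tying it to these counts.

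The mammalian clock is a transcriptional feedback loop that runs with a period of about a day in most cell types, the mammary epithelium included. CLOCK and BMAL1 form a dimer that binds E-boxes and activates the Per, Cry, Nr1d and Dbp genes, and the PER and CRY proteins then return to the nucleus and block that dimer. In a second loop, REV-ERBα and REV-ERBβ, the products of Nr1d1 and Nr1d2, repress Arntl through ROR elements, which the ROR proteins activate. DBP and its relatives TEF and HLF activate genes through D-boxes, where NFIL3 represses. In cultured lines the clocks of single cells drift apart unless a stimulus such as fresh serum or a glucocorticoid resets them, and RNA of a whole culture gives the average over its cells.

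Of the 10 clock genes, 6 rose in p140Cap cells and 0 fell. Dbp rose most, to 4.06 times its mock level, followed by Per1 at 1.99 times, Nr1d1 at 1.97 times, Per3 at 1.76 times, Cry2 at 1.54 times and Arntl at 1.15 times. Clock, Per2, Cry1 and Nr1d2 did not pass the test. In each of the PER, CRY and REV-ERB families, at least 1 gene rose and at least 1 was not called. The level of a gene is given in CPM, its reads scaled to the TMM-normalized size of the library. A gene was called at an adjusted p under 0.05 in the quasi-likelihood test of edgeR, adjusted by the Benjamini-Hochberg method over all 11800 genes with enough reads. These libraries differed widely, with 71.1% of all genes tested called in either direction 35.2% called higher and 35.9% called lower. The 6 calls among 10 genes were thus fewer than that share of all genes, and the 6 rises were more than the share called higher. By size, 5 of the 10 genes were called higher with a log2 fold change of at least 0.5, a level that 15.3% of all genes tested reached. The median log2 fold change was 0.41 over the clock genes and 0.00 over all genes tested, and the median difference of the clock genes from the mock mean was 0.41, 0.46 and 0.40 in the 3 p140Cap libraries. For the 6 called genes each p140Cap library lay above each mock library, a separation in that direction seen for 36.3% of all genes tested. In either direction the groups lay apart for 73.4% of all genes tested, and p140Cap lay below mock for 37.2%, a pattern that none of the 10 clock genes had.

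**Figure D1:**
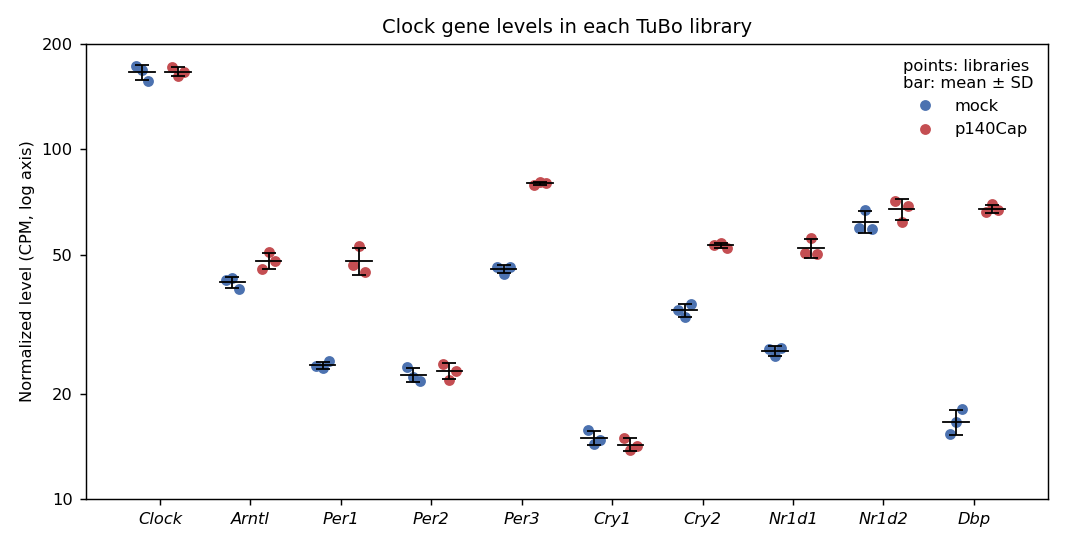
Normalized level of the 10 clock genes in CPM, on a log axis, with 1 point for each library of mock (blue) and p140Cap (red) TuBo cells and the mean ± SD of 3 libraries. The groups lie apart for Dbp, Per1, Nr1d1, Per3, Cry2 and, by a small distance, Arntl, and overlap for Clock, Per2, Cry1 and Nr1d2.

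The libraries held between 13770385 and 75506562 reads on genes, and the mock libraries were the deeper ones, with a ratio of medians of 2.62. The transduced gene matched the labels, with Srcin1 at 15.0 ± 1.96 CPM in mock and 2343 ± 153 CPM in p140Cap cells (SD, n = 3 each). Epithelial markers (Epcam, Krt8, Krt18, Cdh1 and Erbb2) were read in every library, with a summed level of 5245 to 5570 CPM in mock and 6183 to 6339 CPM in p140Cap cells. Markers of other cell types were low. The summed level of 6 fibroblast markers was 9.97 to 10.5 CPM in mock and 11.3 to 14.1 CPM in p140Cap cells, and Col3a1, Dcn and Lum had 0 reads. The 5 leukocyte markers summed to 2.06 to 2.34 CPM in mock and 3.23 to 4.09 CPM in p140Cap cells, nearly all from Cd68, with Ptprc, Adgre1 and Cd3e at 0 reads. The 3 endothelial markers summed to 0.150 to 0.427 CPM in mock and 0.477 to 0.734 CPM in p140Cap cells, with Kdr at 0 reads. A count of 0 allows a level of up to 0.0392 CPM in the deepest and 0.220 CPM in the shallowest library (3 reads, counting error only). The summed level of each of these 4 marker lists was thus higher in p140Cap cells, and its part in the results was not tested. In RNA from whole cultures, more cells that express a gene and more RNA of it per cell cannot be told apart.

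In the positive arm of the loop, Arntl rose slightly and Clock was not called. Clock (chr5:76209868-76305603, minus strand), a histone acetyltransferase and the DNA-binding partner of BMAL1, had 172, 169 and 156 CPM in the mock libraries and 172, 162 and 167 CPM in the p140Cap libraries. The ranges overlapped, and the log2 fold change was 0.01, with a 95% interval of -0.10 to 0.11 (adjusted p = 0.91, edgeR). Arntl (chr7:113178471-113314126, plus strand) had 42.3, 42.8 and 39.8 CPM in mock cells and 45.3, 50.7 and 48.0 CPM in p140Cap cells. The lowest p140Cap library lay above the highest mock library by less than the range within p140Cap cells, and the rise was small, at 0.20 on the log2 scale (adjusted p = 0.00467 in edgeR, SE 0.06, 95% interval 0.08 to 0.32). Over the 15 alternatives its adjusted p lay between 0.00391 and 0.0311 (edgeR, DESeq2 or limma). The number of Clock reads for each Arntl read within a library was 3.98 ± 0.0828 in mock and 3.48 ± 0.301 in p140Cap cells (SD, n = 3 each).

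The 3 Period genes, whose products carry the inhibitory signal of the loop, split. Per1 (chr11:69095108-69109965, plus strand) had 23.9, 23.6 and 24.8 CPM in the mock libraries and 46.7, 52.7 and 44.6 CPM in the p140Cap libraries. All p140Cap libraries were high and the gap between the groups was wider than either group's range, and the log2 fold change was 1.00 (adjusted p = 9.01e-10 in edgeR, SE 0.06). Per3 (chr4:150997018-151044707, minus strand), which is dispensable for rhythms in mice but is itself strongly rhythmic, had 46.0, 44.0 and 46.2 CPM in mock cells and 79.0, 80.6 and 80.1 CPM in p140Cap cells. Its libraries lay close together within each group, and it rose by 0.815 on the log2 scale (adjusted p = 3.53e-10 in edgeR, SE 0.05). Per2 (chr1:91415977-91459351), whose loss disturbs the mouse clock strongly, had 23.8, 22.3 and 21.7 CPM in mock cells and 24.4, 21.9 and 23.3 CPM in p140Cap cells. The groups were interleaved, and the log2 fold change of Per2 was 0.03, with a 95% interval of -0.11 to 0.18 (adjusted p = 0.699, edgeR), which lies wholly below the intervals of Per1 (0.86 to 1.13) and Per3 (0.71 to 0.92). With every library thinned at random to 13770385 reads, the total of the shallowest, Per1 had 331, 324 and 347 reads in mock and 627, 702 and 607 reads in p140Cap cells, and Per2 had 334, 338 and 288 reads in mock and 335, 300 and 317 reads in p140Cap cells. Per1 and Per2, with nearly the same number of reads in mock cells, thus stood apart in p140Cap cells at equal depth. Read ratios within a library do not depend on its depth or scaling. Per1 reads for each Per2 read were 1.00, 1.06 and 1.14 in the mock libraries and 1.92, 2.40 and 1.91 in the p140Cap libraries. For Per3 the ratio to Per2 was 2.01 ± 0.102 in mock and 3.45 ± 0.220 in p140Cap cells (SD, n = 3 each).

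The Cryptochromes, which bind CLOCK and BMAL1 and keep them silent, also split. Cry2 (chr2:92403646-92434085, minus strand) had 34.6, 33.1 and 36.1 CPM in mock cells and 53.1, 53.9 and 52.2 CPM in p140Cap cells. The groups were clearly apart, and Cry2 rose by 0.62 on the log2 scale (adjusted p = 3.12e-08 in edgeR, SE 0.05, 95% interval 0.50 to 0.73). Cry1 (chr10:85131700-85185054, minus strand), the stronger repressor of the pair, had 15.7, 14.4 and 14.7 CPM in mock cells and 15.0, 13.8 and 14.2 CPM in p140Cap cells. Its groups overlapped, with a log2 fold change of -0.07 and a 95% interval of -0.23 to 0.09 (adjusted p = 0.43, edgeR). Cry2 reads for each Cry1 read were 2.20, 2.30 and 2.45 in mock and 3.55, 3.92 and 3.68 in p140Cap libraries.

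Of the REV-ERB genes, nuclear receptors that bind heme and recruit the corepressor NCOR1 with HDAC3, Nr1d1 (chr11:98767932-98775377, minus strand) had 26.9, 25.5 and 27.1 CPM in mock cells and 50.4, 55.9 and 50.2 CPM in p140Cap cells. All p140Cap libraries were well above mock, and Nr1d1 rose by 0.98 on the log2 scale (adjusted p = 3.95e-10 in edgeR, SE 0.06). Nr1d2 (chr14:18204056-18239106, minus strand) had 59.5, 67.2 and 59.3 CPM in mock cells and 71.1, 62.1 and 68.9 CPM in p140Cap cells. One mock library, replicate 2, lay among the p140Cap libraries, and p140Cap replicate 2 lay among the mock libraries. The log2 fold change was 0.12, with a 95% interval of -0.01 to 0.25 (adjusted p = 0.0968, edgeR). Without mock replicate 2 it was 0.18 (adjusted p = 0.0158, edgeR), and without p140Cap replicate 2 it was 0.17 (adjusted p = 0.022, edgeR), so the call for Nr1d2 turned on these libraries. Nr1d1 reads for each Nr1d2 read were 0.429 ± 0.0426 in mock and 0.779 ± 0.105 in p140Cap cells (SD, n = 3 each).

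The reads of Nr1d1 need care, since Nr1d1 and Thra, a thyroid hormone receptor gene on the other strand, overlap at their ends. In the GENCODE annotation of GRCm39, 1694 of the 3242 exonic bases of Nr1d1 also lie in exons of Thra. Thra had 32.9 ± 3.23 CPM in mock and 72.9 ± 5.32 CPM in p140Cap cells (SD, n = 3 each), a log2 fold change of 1.15 (adjusted p = 4.95e-10 in edgeR, SE 0.07). The library kit kept the strand, but the sources used here do not say whether the counting used it, and the part of Thra in the reads of Nr1d1 was not tested. Other protein-coding genes overlap exons of Clock (Tmem165, 2047 bases), Dbp (Sphk2, 539 bases) and Per3 (Uts2, 154 bases). Tmem165 fell by 0.29 on the log2 scale (adjusted p = 0.00032, edgeR), Sphk2 was at 27.7 ± 2.64 CPM in mock and 34.3 ± 3.60 CPM in p140Cap cells (SD, n = 3 each), and Uts2 was at 0.0300 CPM in mock replicate 3 and had 0 reads in the other libraries. The part of Tmem165 in the reads of Clock and of Sphk2 in those of Dbp was not tested.

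Dbp (chr7:45705100-45710203, plus strand) encodes a PAR bZIP factor, one of the most rhythmic transcripts of the clock and a readout of CLOCK and BMAL1 activity in many tissues. It had 15.3, 16.5 and 18.0 CPM in the mock libraries and 66.0, 69.6 and 67.0 CPM in the p140Cap libraries. The lowest p140Cap library was thus more than 3 times the highest mock library. Raw reads, which favor the deeper mock libraries, were 1171, 658 and 601 in mock and 1001, 1022 and 912 in p140Cap cells. In the thinned libraries of equal depth, Dbp had 201, 210 and 233 reads in mock and 905, 949 and 912 reads in p140Cap cells. Dbp rose by 2.03 on the log2 scale (adjusted p = 2.98e-13 in edgeR, SE 0.06, 95% interval 1.90 to 2.17), which put it at position 20 of 11800 genes by p and at position 97 from the highest log2 fold change. With a log2 fold change of at least 1, Dbp was alone among the clock genes, although Per1 and Nr1d1 stood just under that limit, and 4.93% of all genes tested were called higher by that much. The number of Dbp reads for each Arntl read, a ratio of a target of BMAL1 to the gene of BMAL1 itself, was 0.362, 0.386 and 0.454 in mock and 1.45, 1.37 and 1.40 in p140Cap libraries.

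**Figure D2:**
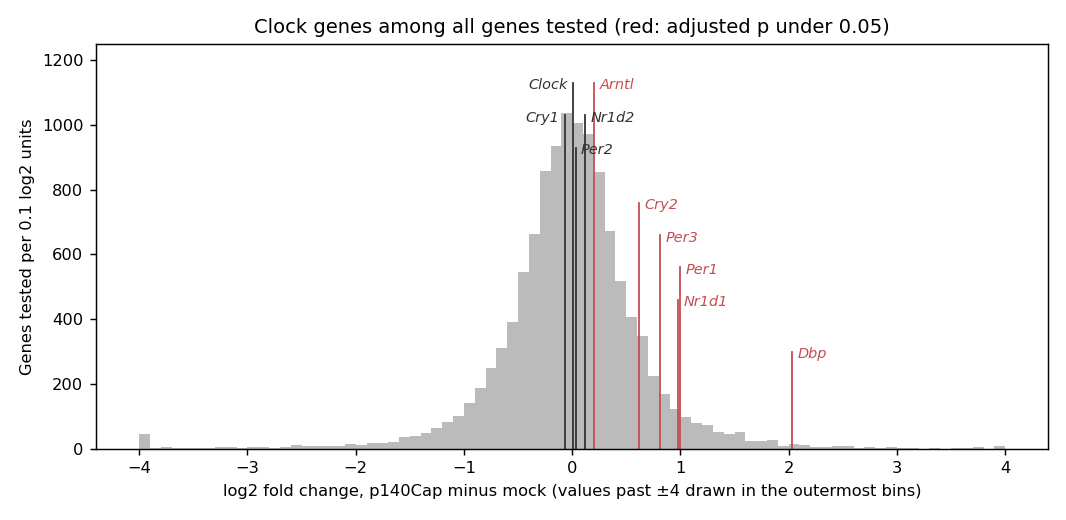
Histogram of the log2 fold change between p140Cap and mock cells over the 11800 genes tested, with the clock genes drawn as vertical lines (red, adjusted p under 0.05; dark grey, not called; line heights carry no value). Dbp lies in the right tail at 2.03, Per1, Nr1d1, Per3 and Cry2 lie between 0.62 and 1.00, and the 4 genes not called lie between -0.07 and 0.12, close to the center of all genes.

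**Figure D3:**
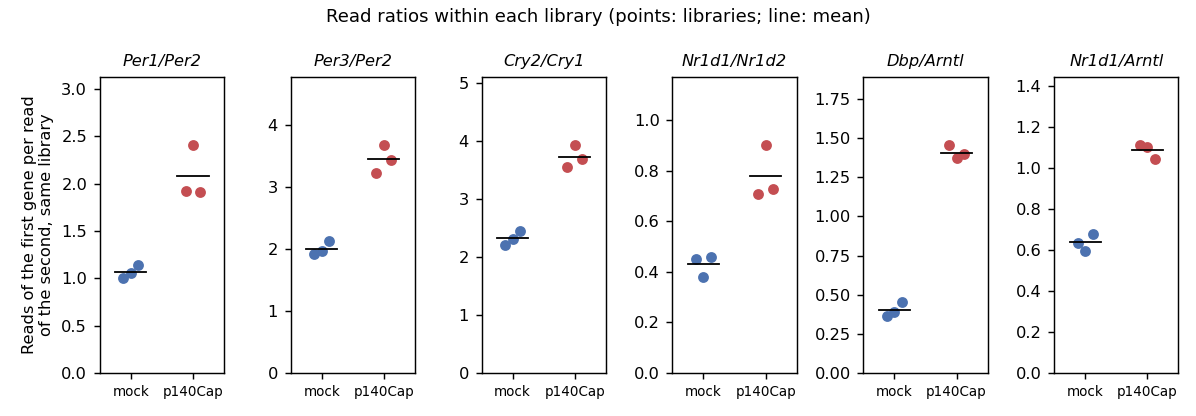
Ratio of raw reads of 2 clock genes within the same library, for 3 mock (blue) and 3 p140Cap (red) libraries, with the mean as a line and axes that start at 0. In all 6 ratios drawn, each p140Cap library lies above each mock library, from 1.60 times for Cry2 to Cry1 up to 3.52 times for Dbp to Arntl (ratio of means). In each pair drawn the first gene was called higher and rose more than the second, so this direction follows from the calls. Of ratios not drawn, Rora to Nr1d1 and Dbp to Nfil3 lie above mock. Clock to Arntl, Arntl2 to Arntl and Hlf to Dbp lie below it.

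Levels of different genes were compared per length, as CPM per kilobase of the canonical GENCODE transcript (RPKM). In mock cells Clock was highest at 16.7 ± 0.844 RPKM, followed by Nr1d2 at 10.9 ± 0.791, Arntl at 9.76 ± 0.380, Nr1d1 at 9.74 ± 0.305, Dbp at 9.05 ± 0.749, Cry2 at 8.36 ± 0.366 and Per3 at 7.54 ± 0.198 RPKM (SD, n = 3 each). Cry1, Per2 and Per1 came last, at 4.90 ± 0.231, 3.88 ± 0.186 and 3.60 ± 0.0885 RPKM. Libraries of neighbors in this order overlapped from Arntl to Nr1d1, from Nr1d1 to Dbp and from Dbp to Cry2, and these neighbors did not differ beyond their spread. In p140Cap cells Dbp came first at 36.8 ± 1.02 RPKM, ahead of Nr1d1 at 19.2 ± 1.19 and Clock at 16.8 ± 0.518 RPKM. Per3 (13.3 ± 0.142), Cry2 (12.8 ± 0.209), Nr1d2 (11.9 ± 0.827), Arntl (11.3 ± 0.625) and Per1 (7.18 ± 0.630 RPKM) followed, with only Nr1d2 and Arntl overlapping. Cry1 (4.69 ± 0.200 RPKM) and Per2 (3.98 ± 0.211 RPKM) were lowest. With the length of all annotated exons in place of the canonical transcript, the first 3 positions in p140Cap cells were the same, and in mock cells Clock was again first, while Arntl fell from position 3 to position 7 and Nr1d1 moved from position 4 to position 2.

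The promoters of the clock genes were read for the elements through which the loops act. RefSeq windows of GRCm38.p6 reach from 250 bases before to 50 bases after an annotated start, and 13 windows were found for 9 of the 10 genes, all but Per2. Both strands were searched for the E-box (CACGTG), the related E′-box (CACGTT), the D-box (TTATGTAA or TTACGTAA) and the core of the ROR element (TAGGTCA or TGGGTCA), which do not overlap each other in the stretches shown. Of 32851 windows of all genes, 7.15% hold the E-box, 4.68% the E′-box, 1.06% the D-box and 6.45% the ROR core. The window of Per3, which rose, holds the D-box at 2 places, at positions -205 and -158 from the annotated start. Timeless, a gene of the wider clock network that fell, also holds a D-box, at position -157. The Per3 window lies on the minus strand at chr4:151044616-151044915 and is shown whole, 5′ to 3′, with the D-boxes in capitals.
Per3: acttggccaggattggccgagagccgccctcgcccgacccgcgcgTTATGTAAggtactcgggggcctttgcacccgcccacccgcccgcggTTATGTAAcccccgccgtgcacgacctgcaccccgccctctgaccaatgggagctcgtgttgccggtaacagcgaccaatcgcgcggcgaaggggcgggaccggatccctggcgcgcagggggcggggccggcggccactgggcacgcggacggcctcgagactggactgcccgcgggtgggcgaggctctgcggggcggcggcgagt

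Matches in the other windows are shown as short stretches, with the element in capitals, because they fall on genes that rose and on genes that were not called. Per1 holds an E-box at position -166 (chr11:69098772-69098799, plus strand), and Cry1, which was not called, holds one at -60 (chr10:85185098-85185125, minus strand) beside an E′-box at -79. Nr1d1 holds an E′-box at -28 (chr11:98775389-98775416, minus strand) and Cry2 one at -166 (chr2:92434219-92434246, minus strand). In Arntl, the ROR core, the site class bound by REV-ERB and ROR proteins, lies 30 bases past the start (chr7:113207530-113207558, plus strand). The E′-boxes of these stretches read AACGTG, the letters of the other strand.
Per1, E-box: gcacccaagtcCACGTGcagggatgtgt
Cry1, E-box: gtgccggtggtCACGTGgggtgcatgcc
Cry1, E′-box: cacacttcagaAACGTGaggtgccggtg
Nr1d1, E′-box: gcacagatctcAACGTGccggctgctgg
Cry2, E′-box: cacatggtgggAACGTGagggggcggag
Arntl, ROR core: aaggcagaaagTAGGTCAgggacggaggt

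An element in a promoter is a description of these letters and no measure of binding, and the windows of Clock, Nr1d2 and Dbp hold no match to the letters searched. Bases outside the windows, further upstream or within the genes, were not searched. Of the 9 clock genes with a window, an E-box or E′-box was thus found in 3 genes that rose (Per1, Nr1d1 and Cry2) and in Cry1, which was not called. Among other list genes read below, such a match was found in Tef, Bhlhe41, Ncor1, Fkbp5 and Dusp1, which rose. It was also found in Sirt1 and Sgk1, which fell, in Ciart, which was not called, and in Rorb, which was not tested. Of all genes with a window, 8.09% hold the E-box and 5.44% the E′-box.

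The wider clock network was read from a list of 29 further genes, of which 27 had enough reads for the test. In p140Cap cells, 13 of the 27 rose and 8 fell, and their median log2 fold change was 0.10. Over all genes tested 71.1% were called, 35.2% higher and 35.9% lower, so the 21 calls among 27 genes were near that share. With a log2 fold change of at least 0.5 in size, 7 rose and 4 fell, beside 15.3% and 15.5% of all genes tested. Npas2, a paralogue of Clock, and Rorb had 0 reads in every library and were not tested.

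Rora, which encodes an activator of Arntl at the elements where REV-ERB proteins repress, rose in p140Cap cells. It had 44.0, 38.7 and 41.4 CPM in mock cells and 136, 126 and 127 CPM in p140Cap cells. The groups lay far apart, and Rora rose by 1.64 on the log2 scale (adjusted p = 6.82e-13 in edgeR, SE 0.06). Rora and Nr1d1, an activator and a repressor of the same elements, thus both rose, and Rora reads for each Nr1d1 read were 1.56 ± 0.0677 in mock and 2.49 ± 0.225 in p140Cap cells (SD, n = 3 each). Arntl2, the paralogue of Arntl that can stand in for it in the dimer, went the other way, with 22.4, 24.4 and 20.8 CPM in mock and 16.2, 17.4 and 15.4 CPM in p140Cap cells. It fell by 0.47 on the log2 scale (adjusted p = 5.85e-05 in edgeR, SE 0.08), and Arntl2 reads for each Arntl read were 0.541 ± 0.0247 in mock and 0.340 ± 0.0189 in p140Cap cells (SD, n = 3 each).

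At D-boxes, the activators Tef and Hlf and the repressor Nfil3 all rose, though less than Dbp. Tef was at 135 ± 5.54 CPM in mock and 179 ± 4.92 CPM in p140Cap cells, and Hlf was at 282 ± 10.7 and 354 ± 6.66 CPM (SD, n = 3 each). Their log2 fold changes were 0.40 and 0.33 (adjusted p = 1.25e-06 and 1.14e-05, edgeR). Hlf therefore had 17.1 ± 1.72 reads for each Dbp read in mock cells and 5.24 ± 0.0725 in p140Cap cells (SD, n = 3 each). Nfil3 had 13.7, 14.6 and 13.5 CPM in mock and 24.3, 24.4 and 20.3 CPM in p140Cap cells, a log2 fold change of 0.72 (adjusted p = 3.99e-07 in edgeR, SE 0.08). Dbp reads for each Nfil3 read were 1.20 ± 0.124 in mock and 2.96 ± 0.306 in p140Cap cells (SD, n = 3 each).

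Among genes that repress at E-boxes, Bhlhe40 (DEC1), which also responds to hypoxia and serum, had 427, 412 and 410 CPM in mock and 669, 672 and 624 CPM in p140Cap cells. Bhlhe41 (DEC2) had 82.9, 78.4 and 83.5 CPM in mock and 155, 155 and 143 CPM in p140Cap cells. Both were above mock in every p140Cap library, with log2 fold changes of 0.65 and 0.89 (adjusted p = 3.77e-09 and 1.63e-10 in edgeR, SE 0.05 each). Ciart, which encodes the BMAL1 repressor CHRONO, had 10.5, 9.73 and 11.3 CPM in mock and 9.82, 10.4 and 7.79 CPM in p140Cap cells. The groups overlapped, and Ciart was not called (log2 fold change -0.16, 95% interval -0.38 to 0.06, adjusted p = 0.169, edgeR).

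Of 6 genes of the ligases and deubiquitinases that set the life of PER and CRY proteins, 3 rose, 1 fell and 2 were not called, a share of calls near the 71.1% of all genes tested. None of the PER kinases Csnk1d, Csnk1e and Gsk3b was called, with log2 fold changes of 0.00 to 0.10. The PER ligase gene Btrc was at -0.03 on the log2 scale and was not called, and its paralogue Fbxw11 rose by 0.21. Usp2, a rhythmic deubiquitinase gene, had 2.88, 2.34 and 2.88 CPM in mock and 6.33, 6.95 and 5.73 CPM in p140Cap cells, a log2 fold change of 1.22 (adjusted p = 3.69e-07 in edgeR, SE 0.13). Fbxl21, an F-box gene of the CRY proteins, rested on few reads, with 62, 31 and 21 in mock and 30, 24 and 33 in p140Cap libraries, and rose by 1.40 on the log2 scale (adjusted p = 3.21e-05 in edgeR, SE 0.22). Usp7, which removes ubiquitin from CRY proteins, fell by 0.35.

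Genes of partner proteins moved in opposite ways. Ncor1 and Hdac3, the corepressor pair of the REV-ERB proteins, rose by 0.22 and 0.18 on the log2 scale (adjusted p = 0.000743 and 0.00306, edgeR). Timeless, Tipin, Nono and Sirt1 fell. Timeless had 62.3, 60.8 and 62.9 CPM in mock and 42.3, 42.2 and 43.8 CPM in p140Cap cells, and Tipin had 71.9, 77.2 and 71.2 CPM in mock and 37.3, 34.1 and 43.8 CPM in p140Cap cells. The log2 fold changes were -0.535 and -0.94 (adjusted p = 8.88e-08 and 5.85e-09, edgeR), and these genes are best known for keeping replication forks stable in dividing cells. Exons of Tipin share 828 bases with Dis3l on the other strand, which fell by 0.26. Sirt1, a deacetylase that acts on BMAL1 and PER2, fell by 0.57 (adjusted p = 2.45e-06 in edgeR, SE 0.07), from 23.1 ± 1.08 to 15.5 ± 0.631 CPM (SD, n = 3 each). Of the output genes, Nampt, the rate-limiting enzyme of NAD salvage, rose by 0.26, Wee1, a kinase that holds back mitosis, fell by 0.38, and Noct, a rhythmic phosphatase gene also known as Nocturnin, fell by 0.87 (adjusted p = 3.44e-06 in edgeR, SE 0.11). Genes described as targets of CLOCK and BMAL1 therefore did not all move with Dbp.

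**Figure D4:**
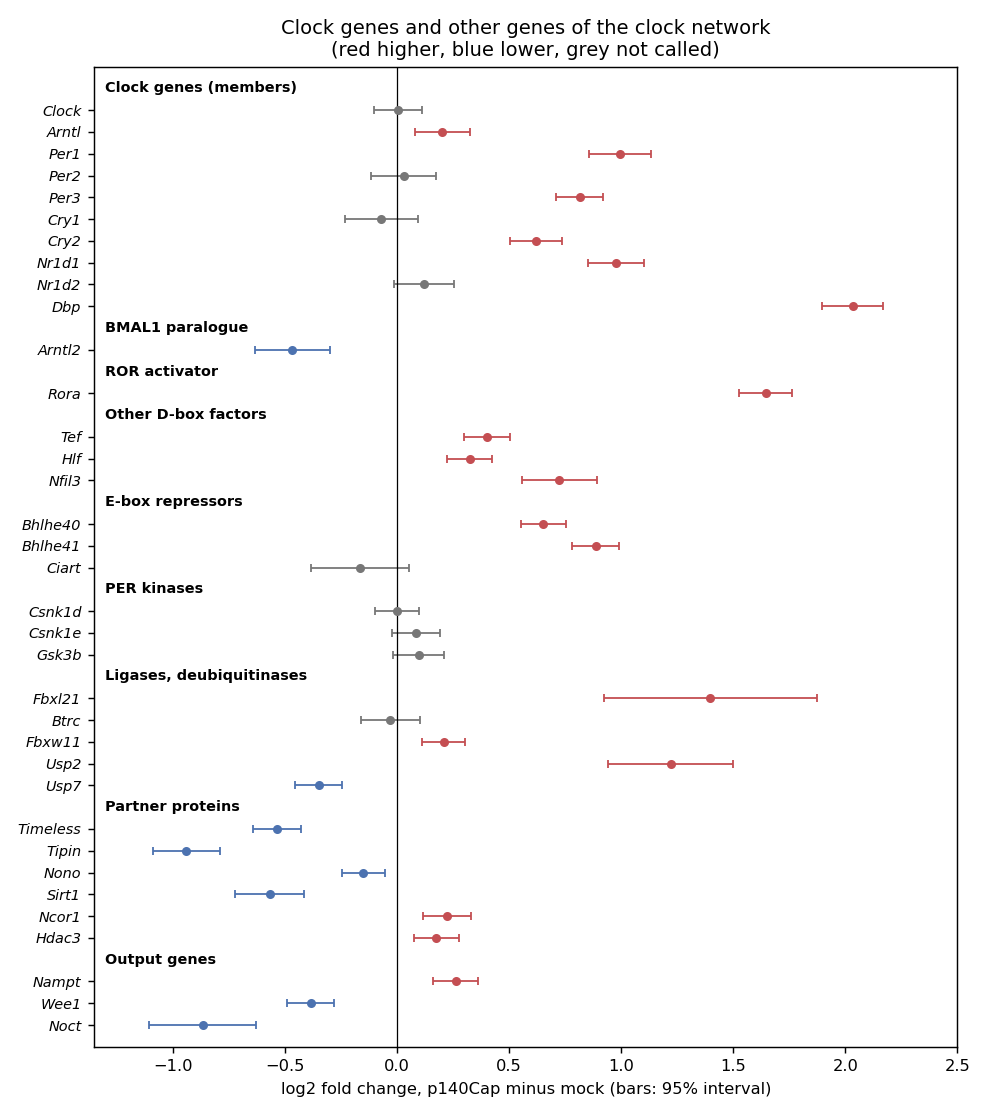
Log2 fold change between p140Cap and mock cells with its 95% interval for the 10 clock genes and 25 genes of the wider network, grouped by role (red higher, blue lower, grey not called at an adjusted p of 0.05). Dbp at 2.03 and Rora at 1.64 are the highest, Rora and the D-box factors lie to the right of 0, the PER kinases lie near 0, and Tipin at -0.94 and Noct at -0.87 are the lowest.

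Signals that reset the clock act on Per1 and Per2 through glucocorticoid response elements, CREB and serum response pathways. A list of 12 genes that answer to these signals or take part in them was read beside the clock genes. Of the 11 tested, 7 rose and 1 fell in p140Cap cells, with a median log2 fold change of 0.25. These 8 calls among 11 genes were close to the 71.1% called over all genes tested, of which 35.2% were higher and 35.9% lower. The immediate-early gene Fos had 7.44, 7.17 and 7.36 CPM in mock and 21.9, 20.2 and 19.5 CPM in p140Cap cells, and Egr1 had 37.7, 35.5 and 36.5 CPM in mock and 88.5, 89.2 and 85.3 CPM in p140Cap cells. Their groups lay far apart, with log2 fold changes of 1.49 and 1.26 (adjusted p = 6.94e-11 and 3.86e-12 in edgeR, SE 0.08 and 0.05). Nr4a1 rose by 0.25 on the log2 scale. Crem, Sik1 and Crtc1, listed in the same CREB and serum group as Fos, Egr1 and Nr4a1, were not called (log2 fold changes of -0.01, -0.03 and 0.01). Among glucocorticoid targets, Fkbp5, Tsc22d3 and Klf9 rose by 0.18, 0.33 and 0.35 on the log2 scale, Dusp1 rose by 0.71 (adjusted p = 0.000787 in edgeR, SE 0.16) on 202, 90 and 84 raw reads in the deeper mock and 48, 71 and 59 in the p140Cap libraries, Sgk1 fell by 0.54 (adjusted p = 7.61e-08 in edgeR, SE 0.05), and Zbtb16 had 0 reads. The part of these signals in the levels of Per1 was not tested.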

How the data were processed

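The RNA-Seq data cover 6 libraries of TuBo cells, 3 mock and 3 p140Cap. By the labels, poly(A) RNA was selected, and the submitters' processing notes name STAR 2.5, RSEM 0.1.1 and mm10 without giving roles. The authors deposited whole-number counts of reads per gene without normalization, with replicates kept apart. If RSEM made them, they are rounded estimates. The sources used here give neither the annotation nor the strand setting.

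Counts were analysed in R 4.3.3 with edgeR 4.0.16 (TMM factors, filterByExpr, quasi-likelihood test on condition alone, p adjusted by Benjamini-Hochberg, threshold 0.05). CPM used TMM-adjusted library sizes. SE is the absolute log2 fold change over the square root of F, and 95% intervals use it with the test's degrees of freedom. The scripts were tested on simulated data. Replicates of a group differed by more than sampling noise (mean chi-square 1.75 to 10.7 over genes with at least 20 reads in the pair). The sources do not say whether replicates were separate cultures, so p-values may reflect technical spread alone, and an exact permutation test of 3 against 3 libraries cannot go below 0.1. Lengths and overlaps came from GENCODE vM39 (GRCm39) by Ensembl identifier, and promoters from RefSeq (GRCm38.p6).

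All clock genes are described. List genes are given with values where called with a log2 fold change of at least 0.5 in size or with too few reads to test. Other list genes, the ratios of reads and the overlapping genes were named after their values were seen. For 2 list genes, values are not reported here, though counts over the list include them. The members and lists were chosen with earlier results of these data known. Alternatives were RLE, upper-quartile or no factors, no filter, at least 10 reads in every library, DESeq2 1.42.0, limma-voom (limma 3.58.1), thinning to the smallest library, leaving out each library, and the replicate number as a block.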

Additional observations from a re-analysis of the deposited data

How the results depend on the processing

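Under 15 alternatives, the number of clock genes called was 6 or 7, the number of wider network genes called was 21 or 22, and 8 genes answering to resetting signals were called each time. No called gene of these lists lost its call or changed direction in 735 single-gene results, and 3 results became calls, 2 of them for Nr1d2, each with 1 library left out. The median log2 fold change of the clock genes was 0.37 with library totals alone, beside a shift of -0.04 in the median of all genes tested, and with each library left out it lay between 0.39 and 0.43. Over all genes, between 7851 and 8716 were called. Replicate numbers are shared between the groups. The deviations of same-numbered libraries from their group means had correlations of -0.01, -0.25 and -0.05, and those of differently numbered libraries ran from -0.15 to 0.18. Same-numbered libraries were thus not more alike by this measure. Deviations within a group cancel out, which ties these correlations together, so the check cannot exclude pairing. With the replicate number as a block, 6 clock genes were called, as without it, and 8034 in place of 8388 of all genes. Depth limits mainly Fbxl21, Dusp1 and Usp2, which had fewer than 100 reads in most libraries.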
